A study of Mus musculus with 67 samples.

Results

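Genes of fatty acid oxidation and the fasting response, 10 in all, were followed through 4 tissues of 3 inbred mouse strains: Ppara, Cd36, Cpt1a, Slc25a20, Hadhb, Acadm, Bdh1, Pdk4, Ucp3 and Fgf21. A probe set was taken as a gene's own when the platform annotation gave that gene as its only symbol. Of the 10 genes, 9 had a named probe set, and these 9 genes held 15 of the 38385 probe sets on the array. Acadm, a medium-chain acyl-CoA dehydrogenase, had no named probe set and was not analysed here. Where a gene had more than 1 probe set, the one with the highest mean over the 4 tissues stands for it and is called probe set 1. The mice were BPH/2J (BPH, hypertensive), BPL/1J (BPL, hypotensive) and BPN/3J (BPN, normotensive) males aged 12 weeks, on standard chow with free access to it. Systolic pressures of 142 ± 5, 69 ± 1.7 and 94 ± 6 mmHg were given for BPH, BPL and BPN, with no statement of what the error is. Liver and heart had 5 arrays per strain, kidney had 5 BPH, 4 BPL and 5 BPN arrays, and aorta had 9 BPH, 9 BPL and 5 BPN arrays, 67 in all.

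Each strain is an inbred line, so its pressure and the rest of its genome cannot be told apart. Probe sequences were not available here, so sequence differences between the strains under the probes could not be checked for any gene. The labels speak of 5 mice per strain and do not tie arrays to mice, so some of the 9 BPH and 9 BPL aorta arrays may share an animal, in which case p-values over them are too small. Elsewhere, too, the p-values measure only the spread between arrays, which may be technical. Whether the mice had eaten before the tissues were taken is not given in the sources used here. The genes of each labelled tissue were bright in it: the mean log2 level of the liver markers was 12.86 to 13.02 over the liver arrays, that of the heart muscle markers 13.99 to 14.11 over the heart arrays, that of the kidney markers 11.74 to 12.33 over the kidney arrays, and that of the smooth muscle markers 12.35 to 12.79 over the aorta arrays. Array medians differed between tissues, at 13.6 to 14.4 in liver, 24.6 to 26.3 in heart, 29.8 to 31.5 in kidney and 25.3 to 26.6 in aorta. Levels, given as log2 of the intensity, were therefore compared within a tissue and within a probe set.

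Fatty acids enter cells partly through CD36 and reach the mitochondrial matrix as acylcarnitines, which CPT1A forms at the outer membrane and SLC25A20 carries across the inner membrane. Beta-oxidation, of which HADHB is the thiolase subunit of the trifunctional protein, then cuts them to acetyl-CoA, and in the fasted liver much of that becomes ketone bodies. BDH1 interconverts acetoacetate and beta-hydroxybutyrate, on the making side in liver and on the burning side in heart. PDK4 switches off pyruvate dehydrogenase and so spares glucose, UCP3 is a mitochondrial carrier of muscle and brown fat induced by fatty acids, and FGF21 is a hormone that the liver releases in fasting. PPARA is the fatty acid-activated nuclear receptor that drives many of these genes.

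The promoters of the members that differed most in liver and heart are shown first. PPARA acts through a repeat of AGGTCA with 1 base between the copies. The 250 bases before the start site were read from RefSeq on build GRCm38.p6, in which all 10 genes matched and gave 11 promoters, since Bdh1 has starts 6456 bases apart. Capitals mark AGGTCA on either strand, seen as TGACCT on the other, or CACGTG, the E-box core. Bdh1 is on chromosome 16, at chr16:31422047-31422296 and chr16:31428503-31428752 on the plus strand, Cd36 at chr5:17835897-17836146 on the minus strand, Ucp3 at chr7:100472741-100472990 on the plus strand and Fgf21 at chr7:45615491-45615740 on the minus strand.
Bdh1, first start: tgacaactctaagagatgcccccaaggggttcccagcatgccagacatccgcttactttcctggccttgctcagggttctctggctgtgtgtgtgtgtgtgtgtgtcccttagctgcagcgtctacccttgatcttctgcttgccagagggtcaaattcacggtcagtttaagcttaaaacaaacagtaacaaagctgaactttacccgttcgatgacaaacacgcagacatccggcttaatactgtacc
Bdh1, second start: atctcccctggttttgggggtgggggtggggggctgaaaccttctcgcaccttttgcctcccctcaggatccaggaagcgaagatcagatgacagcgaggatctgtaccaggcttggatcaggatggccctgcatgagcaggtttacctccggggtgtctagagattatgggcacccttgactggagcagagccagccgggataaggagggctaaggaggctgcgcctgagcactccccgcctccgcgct
Cd36: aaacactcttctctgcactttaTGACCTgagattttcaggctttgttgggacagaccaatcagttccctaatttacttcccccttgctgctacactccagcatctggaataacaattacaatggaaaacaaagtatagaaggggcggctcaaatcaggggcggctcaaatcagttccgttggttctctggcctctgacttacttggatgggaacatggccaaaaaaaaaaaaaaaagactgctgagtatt
Ucp3: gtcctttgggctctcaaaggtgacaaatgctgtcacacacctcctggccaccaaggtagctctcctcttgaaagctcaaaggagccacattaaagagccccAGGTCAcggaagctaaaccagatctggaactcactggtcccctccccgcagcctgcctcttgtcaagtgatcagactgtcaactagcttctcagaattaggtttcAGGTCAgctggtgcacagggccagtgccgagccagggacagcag
Fgf21: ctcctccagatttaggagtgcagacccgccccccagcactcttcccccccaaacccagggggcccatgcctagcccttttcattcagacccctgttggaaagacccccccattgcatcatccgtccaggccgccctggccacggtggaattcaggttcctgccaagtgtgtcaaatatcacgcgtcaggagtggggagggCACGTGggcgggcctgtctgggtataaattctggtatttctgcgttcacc

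The full repeat, AGGTCA then AGGTCA with any 1 base N between the copies, on either strand, was in none of the 11 promoters and in 0.0335% of all 32851 promoters. The looser form, the same repeat of AGGNCA, which includes the full repeat, was also in none of the 11 and in 0.338% of all. A single copy of AGGTCA, contained in the full repeat, was in 4 of the 11 (Acadm, Cd36, Ucp3 and Cpt1a) and in 14.02% of all promoters. In Ucp3 it began 149 and 44 bases before the start site, and in Cd36 it began 228 bases before it. CACGTG was in the Fgf21 promoter, beginning 50 bases before the start, and in 6.02% of all promoters. A match is letters in a window, and no match says only that these letters are not in these 250 bases.

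In liver, 5 of the 9 genes passed the test between BPH and BPN, against 7.14% of all 38385 probe sets (limma, Benjamini-Hochberg adjusted p below 0.05 over all probe sets). Cd36, Bdh1 and Hadhb were higher in BPH, and Pdk4 and Fgf21 were lower. The median difference of the 9 genes was 0.03, and that of all probe sets was 0. In whole tissue, fewer cells of a type and less RNA per cell cannot be told apart.

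**Figure D1:**
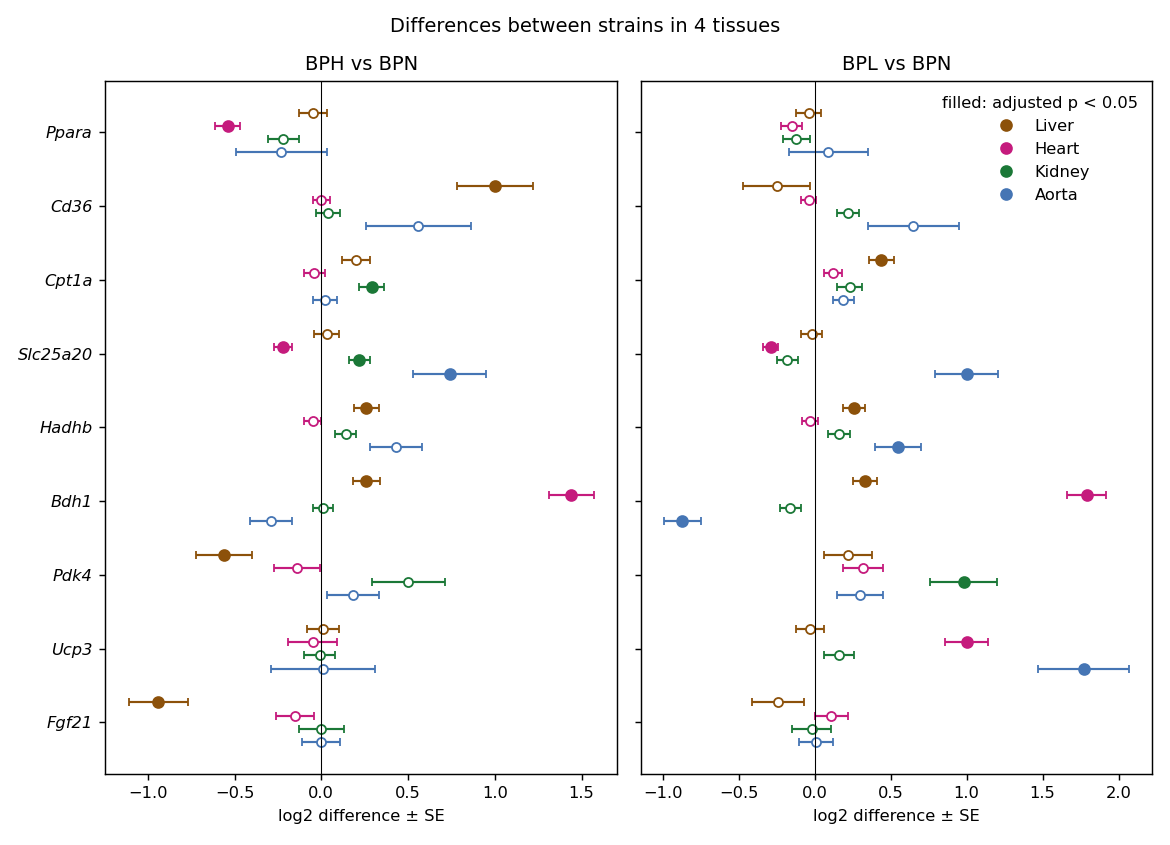
Log2 differences with their standard errors for the 9 genes by probe set 1, BPH minus BPN on the left and BPL minus BPN on the right, in liver, heart, kidney and aorta, with filled points where the adjusted p was below 0.05. The points farthest from 0 are Bdh1 in heart (1.44 and 1.79) and Ucp3 in BPL aorta (1.77).

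Cd36, the fatty acid translocase, showed the largest difference of the 9 genes in BPH liver. Its log2 levels were 6.19, 7.10, 6.83, 7.35 and 7.35 in the BPH livers and 6.06, 5.80, 6.11, 6.17 and 5.69 in the BPN livers. All 5 BPH arrays lay above all 5 BPN arrays, although the lowest BPH array cleared the highest BPN array by little. The difference was 1.00 ± 0.22 (SE, adjusted p = 0.00637), and probe set 2 gave 0.92 ± 0.16 (adjusted p = 0.000959). In BPL livers Cd36 stood at 5.53, 5.36, 5.27, 6.37 and 6.08, with 3 arrays below and 1 above all BPN values, and BPL minus BPN was -0.25 ± 0.22 (adjusted p = 0.634). BPH exceeded BPL by 1.24 ± 0.22 (adjusted p = 0.000947). Macrophages also express CD36. Of the 4 measured macrophage markers, 4 were lower in BPH and 3 in BPL liver than in BPN, and their mean level was 6.98 to 7.35 in BPH, 7.27 to 7.39 in BPL and 7.56 to 7.90 in BPN livers. Of the 4 endothelial markers, 1 was higher in BPH and 1 in BPL liver than in BPN, and none was lower. The part of either cell type in the Cd36 differences was not tested.

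Fgf21, the fasting hormone, went the opposite way to Cd36 in BPH liver. It stood at 4.19, 4.55, 4.50, 4.58 and 4.22 in BPH livers and at 5.45, 5.34, 5.29, 5.10 and 5.58 in BPN livers. The groups did not overlap, and BPH minus BPN was -0.94 ± 0.17 (adjusted p = 0.00105). The BPL livers had 4.91, 4.74, 4.77, 5.86 and 5.29, all above the BPH livers, and BPH minus BPL was -0.70 ± 0.17 (adjusted p = 0.0129). BPL minus BPN was -0.24 ± 0.17 and did not pass (adjusted p = 0.513), but without BPL array 4, the highest, it was -0.42 and passed.

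Pdk4, which restrains glucose oxidation, was also lower in BPH liver. Its levels were 6.18, 6.08, 6.47, 5.94 and 6.30 in BPH livers, 6.96, 7.24, 7.34, 7.01 and 6.32 in BPL livers and 6.75, 7.02, 6.91, 6.62 and 6.46 in BPN livers. The BPH values sat at the low end, and 1 BPH array just passed the lowest BPN array. BPH minus BPN was -0.56 ± 0.16 (adjusted p = 0.0351), and the call was lost when any one of 7 arrays (BPH 1, 2, 4 and 5, BPN 1, 2 and 3) was left out, with an adjusted p of up to 0.0997. Probe set 2 gave -0.54 ± 0.23 (adjusted p = 0.195). BPH minus BPL was larger, at -0.78 ± 0.16 (adjusted p = 0.00347), and kept its call with any one array left out.

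**Figure D2:**
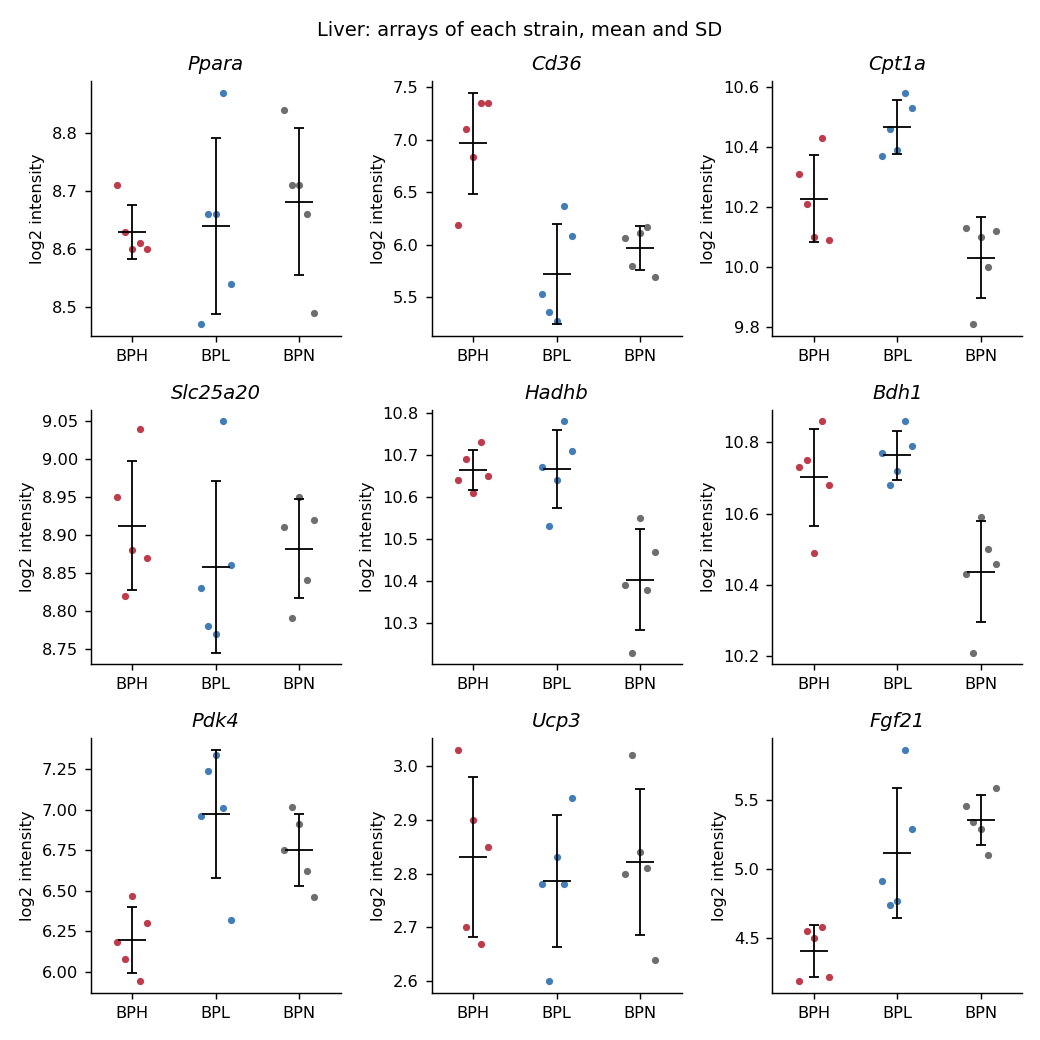
Log2 intensity in each liver array for the 9 genes by probe set 1, in BPH, BPL and BPN, with the mean and SD. The 5 BPH points for Cd36 (6.19 to 7.35) lie above and those for Fgf21 (4.19 to 4.58) below every BPN point.

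Hadhb and Bdh1 showed smaller differences in liver, in both BPH and BPL. Hadhb averaged 10.66 ± 0.05 in BPH, 10.67 ± 0.09 in BPL and 10.40 ± 0.12 in BPN livers (SD, n = 5 each), a difference of 0.26 ± 0.07 from BPN in each (adjusted p = 0.0253 in BPH and 0.0225 in BPL). The dim probe set 2 of Hadhb gave 0.03 and 0.10 and did not pass. The Hadhb call was lost without any one of BPH 2, BPH 4, BPN 1, BPN 2 and BPN 4 in the first comparison and of BPL 4, BPL 5 and BPN 2 in the second. Bdh1 averaged 10.70 ± 0.14 in BPH, 10.76 ± 0.07 in BPL and 10.44 ± 0.14 in BPN livers (SD, n = 5 each). Its BPH difference of 0.26 ± 0.08 barely passed (adjusted p = 0.0499) and was lost without any one of 13 of the 15 arrays, and the BPL difference of 0.33 ± 0.08 passed (adjusted p = 0.0136). Its probe set 2 gave 0.27 ± 0.08 in BPH (adjusted p = 0.062) and 0.60 ± 0.08 in BPL (adjusted p = 9.08e-05), and there BPH also lay below BPL, by -0.33 ± 0.08 (adjusted p = 0.0232).

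BPL liver had 3 of the 9 genes called against BPN, all higher, against 7.47% of all probe sets: Bdh1, Hadhb and Cpt1a. Cpt1a, the gate of mitochondrial import, stood at 10.37, 10.46, 10.39, 10.58 and 10.53 in BPL livers and at 10.13, 9.81, 10.10, 10 and 10.12 in BPN livers. Every BPL value exceeded every BPN value, by 0.44 ± 0.08 on average (adjusted p = 0.00172). BPH livers lay between them at 10.23 ± 0.15 (SD, n = 5), and BPH minus BPN was 0.20 ± 0.08 (adjusted p = 0.189). Between BPH and BPL, 3 of the 9 genes passed, against 5.77% of all probe sets, namely Cd36, higher in BPH, and Pdk4 and Fgf21, lower. Slc25a20, the carnitine-acylcarnitine carrier, differed by at most 0.06 between any 2 strains in liver, and Ucp3 lay near the lower quartile of the liver arrays, where it carries no comparison.

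Of 73 other genes of these pathways, 62 had a named probe set. In liver 5 of the 62 were higher and 4 lower in BPH than in BPN, and 11 were higher and 6 lower in BPL. Of all probe sets, 3.29% were higher and 3.85% lower in BPH, and 3.77% and 3.70% in BPL. In BPH, Bdh2, a short-chain dehydrogenase once assigned to ketone metabolism, averaged 6.44 ± 0.28 against 7.21 ± 0.10 in BPN (difference -0.76, adjusted p = 0.000159). Echs1, the short-chain enoyl-CoA hydratase of beta-oxidation, averaged 10.86 ± 0.01 against 10.53 ± 0.15 (0.32, adjusted p = 0.00954). Pdk1, a relative of Pdk4, averaged 6.88 ± 0.14 against 7.20 ± 0.15 (-0.32, adjusted p = 0.0296), and its call was lost without any one of 6 arrays. Of the 12 measured beta-oxidation genes, 2 were higher in BPH and 3 in BPL, and none was lower. That list's median difference was 0.15 in BPH and 0.16 in BPL, against 0 and 0.01 over all probe sets.

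Of the 11 measured regulators, 3 were higher and 3 lower in BPL liver than in BPN. Pparg, the lipid-storing relative of Ppara, averaged 4.04 ± 0.26 in BPL and 5.70 ± 0.15 in BPN livers (difference -1.66, adjusted p = 3.46e-08). Ppard, the third receptor of the family, averaged 5.92 ± 0.15 against 6.57 ± 0.21 (-0.66, adjusted p = 0.000555). Angptl4, a secreted inhibitor of lipoprotein lipase induced by fasting, averaged 8.07 ± 0.56 against 6.85 ± 0.20 (1.23, adjusted p = 0.0012). None of these 3 passed between BPH and BPN, with differences of -0.03, -0.31 and -0.12.

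In heart, between BPH and BPN, 3 of the 9 genes passed, against 7.02% of all probe sets: Bdh1 was higher in BPH, Slc25a20 was lower, and Ppara was lower at probe set 1 but higher at probe set 3. Between BPL and BPN 3 passed, against 9.34%: Ucp3 and Bdh1 were higher in BPL and Slc25a20 was lower. Between BPH and BPL 3 passed, against 8.57%, all lower in BPH: Ppara, Ucp3 and Pdk4.

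Bdh1, which opens beta-hydroxybutyrate to oxidation in heart muscle, had the largest differences of the 9 genes there. Its levels were 10.72, 10.45, 10.86, 10.35 and 10.10 in BPH hearts, 10.73, 10.85, 10.79, 10.81 and 11.03 in BPL hearts and 9.47, 8.90, 8.86, 8.91 and 9.13 in BPN hearts. Both the hypertensive and the hypotensive strain lay wholly above the normotensive one. BPH minus BPN was 1.44 ± 0.13, a 2.72-fold difference (adjusted p = 7.13e-07), and BPL minus BPN was 1.79 ± 0.13, or 3.46-fold (adjusted p = 4.43e-08). Probe set 2 gave 1.49 ± 0.14 and 2.07 ± 0.14 (adjusted p = 1.23e-06 and 1.7e-08). The 2 comparisons share the BPN arrays. BPH and BPL differed by -0.35 ± 0.13 at probe set 1 (adjusted p = 0.133) and by -0.58 ± 0.14 at probe set 2 (adjusted p = 0.0148).

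The Bdh1 difference was not matched in the other tissues. In liver BPH minus BPN was 0.26, in kidney 0.01 ± 0.06 and in aorta -0.29 ± 0.12. Tested as a difference of differences in a joint fit of all 12 groups, liver minus heart was -1.18 ± 0.16 (adjusted p = 2.79e-07), kidney minus heart -1.44 ± 0.16 (adjusted p = 1.11e-09) and aorta minus heart -1.74 ± 0.15 (adjusted p = 7.99e-14) for BPH against BPN. For BPL against BPN these were -1.46, -1.95 and -2.66, and each also passed, as did all 6 at probe set 2. Of all probe sets, 2.30% and 2.65% passed the kidney test for BPH and BPL, and 7.29% and 8.03% the aorta test. The kidney and aorta tests were chosen after seeing the data. Aorta RNA was amplified with another kit, so tissue and kit cannot be told apart in the aorta test. In aorta Bdh1 went the other way in BPL, with 8.62 to 9.39 (median 9.19) in 9 BPL aortas and 9.70, 9.79, 10.01, 10.41 and 10.13 in BPN aortas. That difference of -0.87 ± 0.12 left no overlap (adjusted p = 9.98e-06), while probe set 2 gave -0.43 ± 0.15 (adjusted p = 0.0614). BPH minus BPL in aorta was 0.57 ± 0.10 (adjusted p = 0.000216), and 0.18 ± 0.12 at probe set 2 (adjusted p = 0.458).

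**Figure D3:**
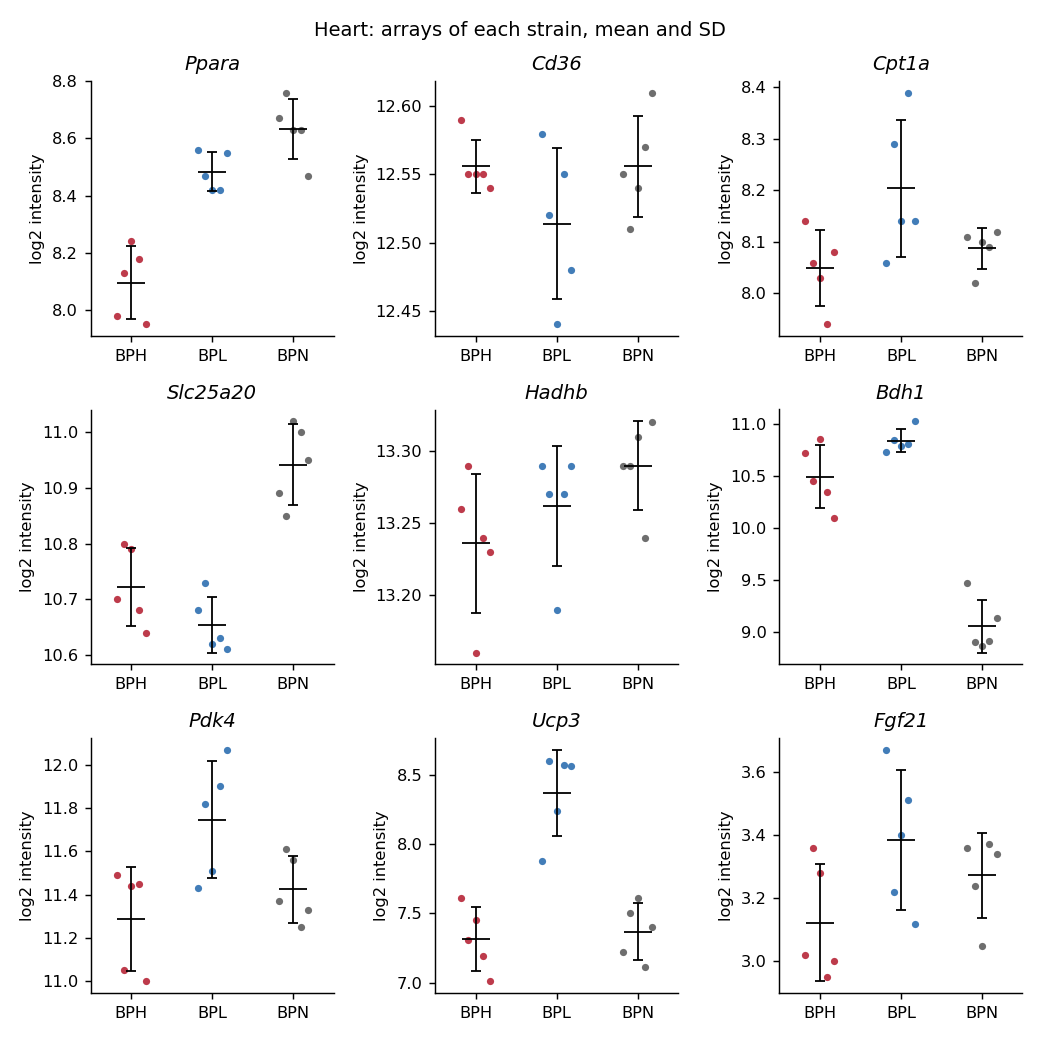
Log2 intensity in each heart array for the 9 genes by probe set 1, in BPH, BPL and BPN, with the mean and SD. For Bdh1 the BPH points (10.10 to 10.86) and BPL points (10.73 to 11.03) lie above the BPN points (8.86 to 9.47), and for Ucp3 only the BPL points (7.88 to 8.60) stand above.

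Ketone use in heart involves 2 further genes named by the fixed rule. Oxct1, which activates acetoacetate for oxidation, averaged 12.48 ± 0.05 in BPH, 12.43 ± 0.04 in BPL and 12.23 ± 0.09 in BPN hearts (SD, n = 5 each). It was higher in both strains than in BPN, by 0.25 (adjusted p = 0.0062) and 0.20 (adjusted p = 0.0227). Slc16a1, a carrier of lactate and ketone bodies, was lower in BPH, at 10.77 ± 0.05 against 11.06 ± 0.06 in BPN (-0.29, adjusted p = 0.00165), and stood at 11.08 ± 0.07 in BPL. Pex11a, a PPARA target of peroxisome division, was lower in both, at 7.89 ± 0.14 in BPH, 7.80 ± 0.08 in BPL and 8.18 ± 0.08 in BPN hearts (-0.29, adjusted p = 0.013, and -0.38, adjusted p = 0.00142).

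Ppara could be read in different ways from its 3 probe sets. At probe set 1, heart levels were 7.98, 8.13, 8.24, 8.18 and 7.95 in BPH, 8.56, 8.47, 8.42, 8.42 and 8.55 in BPL and 8.67, 8.76, 8.63, 8.63 and 8.47 in BPN. BPH lay below both others, by -0.54 ± 0.07 against BPN (adjusted p = 4.43e-05) and -0.39 ± 0.07 against BPL (adjusted p = 0.000976). Probe set 2 gave -0.17 ± 0.06 against BPN (adjusted p = 0.128) and -0.25 ± 0.06 against BPL (adjusted p = 0.0111). Probe set 3 turned the sign against BPN: it read 5.55, 5.75, 6.11, 5.75 and 5.72 in BPH and 5.20, 5.40, 5.55, 5.43 and 5.34 in BPN hearts, a difference of 0.39 ± 0.09 (adjusted p = 0.0117). Against BPL, BPH was lower at all 3 probe sets in heart, with -0.41 ± 0.09 at probe set 3 (adjusted p = 0.00798).

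The same probe set 3 was higher in BPH and BPL than in BPN in liver and kidney too. In liver it averaged 7.02 ± 0.11 in BPH, 7.15 ± 0.22 in BPL and 6.45 ± 0.15 in BPN (0.57 and 0.70, adjusted p = 0.000915 and 8.92e-05), while probe set 1 gave -0.05 and -0.04. In kidney probe set 3 gave 0.53 ± 0.13 and 0.61 ± 0.14 (adjusted p = 0.02 and 0.0122), against -0.22 and -0.12 at probe set 1. In BPL heart it gave 0.80 ± 0.09 (adjusted p = 1.11e-05), against -0.15 ± 0.07 at probe set 1 (adjusted p = 0.231). In aorta none of the 3 probe sets passed in any comparison. Since the probe sets disagree in sign, no direction is given for Ppara between BPH and BPN. Whether they read different transcript variants, or cover strain sequence differences, could not be checked.

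**Figure D4:**
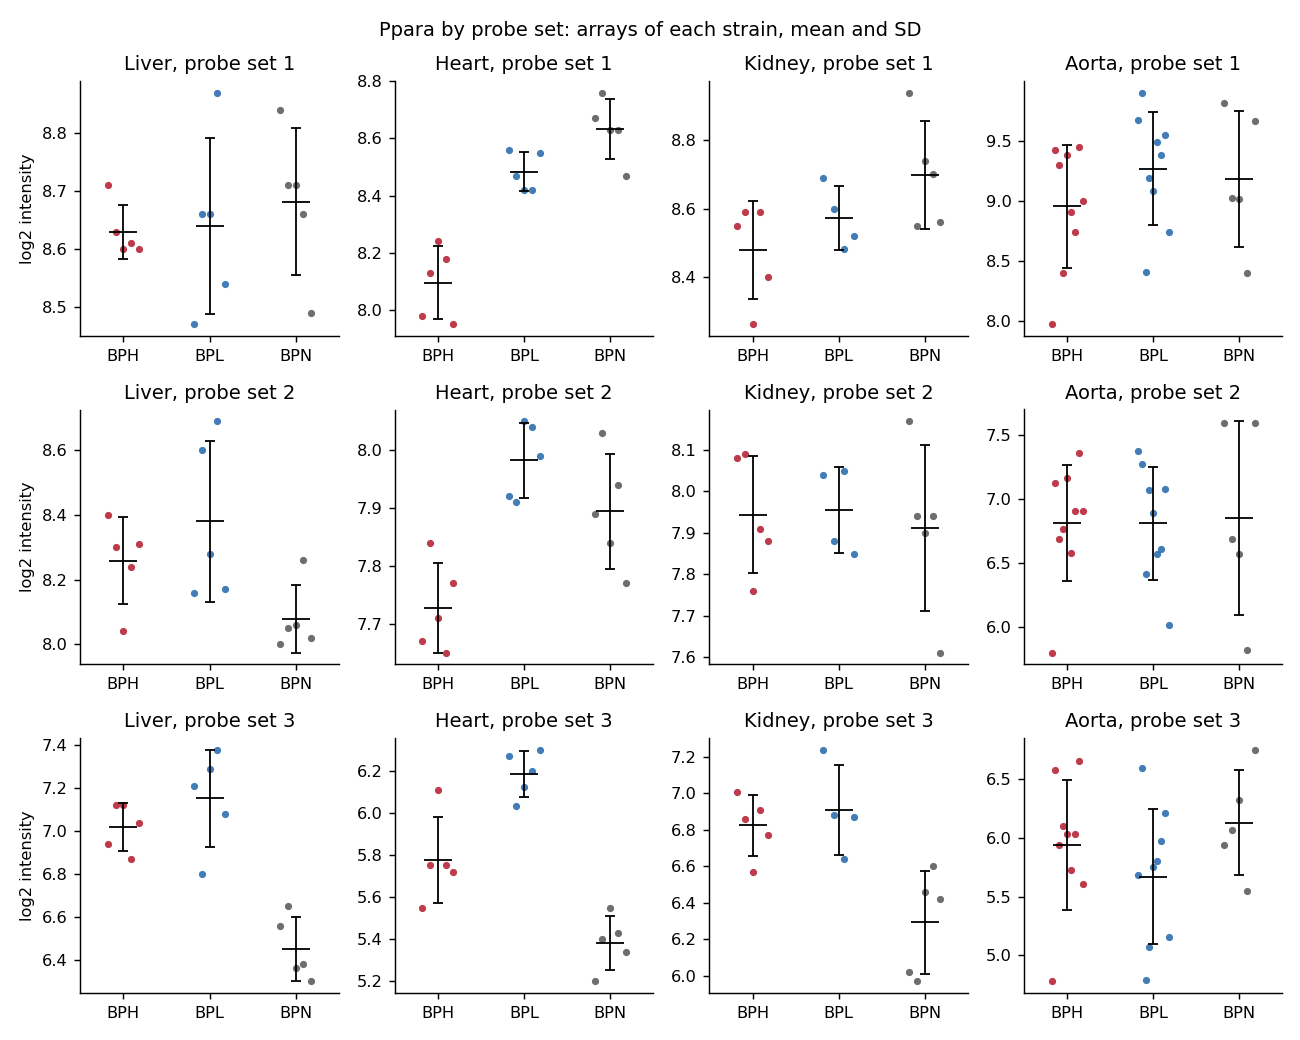
Log2 intensity of the 3 Ppara probe sets (rows) in each array of liver, heart, kidney and aorta (columns), in BPH, BPL and BPN, with the mean and SD. In heart, BPH lies below BPN at probe set 1 (8.09 against 8.63) and above it at probe set 3 (5.78 against 5.38).

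Ucp3 was higher in BPL than in the other strains in heart. Its levels were 7.61, 7.31, 7.45, 7.19 and 7.01 in BPH, 7.88, 8.60, 8.24, 8.57 and 8.56 in BPL and 7.22, 7.50, 7.61, 7.11 and 7.40 in BPN hearts. No BPL array overlapped the others. BPL minus BPN was 1.00 ± 0.14 (adjusted p = 9.6e-05), BPH minus BPL was -1.05 ± 0.14 (adjusted p = 5.04e-05), and BPH minus BPN was -0.05 ± 0.14 (adjusted p = 0.909).

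Brown fat expresses UCP3 too, and its defining gene Ucp1 was bright on 4 of the 5 BPL heart arrays, at 10.16, 10.26, 10.68 and 8.29 on arrays 1, 3, 4 and 5. It was 3.84 to 7.62 on the BPH and 4.05 to 7.34 on the BPN hearts. BPL array 2 had a Ucp1 level of 5.12, inside both ranges, and the highest Ucp3 level of all hearts, 8.60. Fitted without BPL 1, 3, 4 and 5, BPL minus BPN was 1.23 for Ucp3 and 1.80 for Bdh1. These values only restate the lone BPL array 2 against the BPN mean, so no test is given. The part of brown fat in the heart differences was not tested. The arrays left out were those with Ucp1 above every BPH and BPN array, so only BPL arrays could be removed. Over the 3 brown adipocyte markers, the mean level was 5.68 to 6.83 in BPH, 6.10 to 8.60 in BPL and 6.00 to 7.11 in BPN hearts. Over the 4 measured white adipocyte markers it was 3.96 to 6.13 in BPH, 5.08 to 7.04 in BPL and 4.87 to 6.59 in BPN hearts. Neither list had a marker called against BPN, although Ucp1 came near it in BPL. BPL minus BPN was 3.03 ± 0.96 for Ucp1 (adjusted p = 0.0583). It was 0.34 ± 0.20 for Cidea (adjusted p = 0.344) and -0.07 ± 0.14 for Elovl3 (adjusted p = 0.827). Between BPH and BPL, 2 of the 3 brown and 3 of the 4 white adipocyte markers were lower in BPH, among them Ucp1 (-3.96 ± 0.96, adjusted p = 0.0133), Cidea (-0.85 ± 0.20, adjusted p = 0.00956) and Adipoq (-3.48 ± 0.92, adjusted p = 0.0221). Without the 4 arrays of bright Ucp1, BPH minus BPL was -1.29 for Ucp3 and -0.37 for Ppara, again with BPL array 2 alone. Of the 4 macrophage markers, 2 were lower in BPH and 4 in BPL hearts than in BPN, and their part in the heart differences was not tested.

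Slc25a20 was lower in both strains than in BPN in heart. It stood at 10.70, 10.80, 10.79, 10.68 and 10.64 in BPH, 10.68, 10.73, 10.62, 10.63 and 10.61 in BPL and 10.89, 10.85, 11.02, 11 and 10.95 in BPN hearts. BPN lay above both without overlap, and the differences were small, -0.22 ± 0.05 in BPH (adjusted p = 0.0176) and -0.29 ± 0.05 in BPL (adjusted p = 0.00192). The BPH call was lost without BPH 5 or without BPN 3, with an adjusted p of up to 0.0523. Without the 4 BPL arrays of bright Ucp1, the BPL difference was -0.21, resting on 1 BPL array.

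Pdk4 in heart stood at 11.49, 11.05, 11.44, 11.45 and 11 in BPH, 11.43, 11.82, 11.51, 11.90 and 12.07 in BPL and 11.37, 11.61, 11.56, 11.25 and 11.33 in BPN. The groups overlapped, and the comparison that passed was BPH minus BPL, -0.46 ± 0.13 (adjusted p = 0.0279). It was lost without any one of BPH 2, BPH 5, BPL 2, BPL 4 and BPL 5. Without the 4 bright-Ucp1 arrays the difference was -0.53, with 1 BPL array left. Cd36 and Hadhb differed between any 2 strains by at most 0.07 at every probe set in heart. Both were near the top of the scale there, except for the dim probe set 2 of Hadhb (mean 4.86 in BPN). Cpt1a differed from BPN by -0.04 in BPH and 0.12 in BPL and did not pass, and Fgf21 lay near the lower quartile of the heart arrays.

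The wider pathway list had 4 genes higher and 3 lower in BPH hearts, and 11 higher and 3 lower in BPL hearts, of 62. Of all probe sets, 3.51% were higher and 3.51% lower in BPH, and 4.14% and 5.20% in BPL. In BPL, Pdk2 and Pdk3, the sister kinases of Pdk4, were lower, at 9.99 ± 0.09 against 10.59 ± 0.08 in BPN (-0.60, adjusted p = 1.15e-06) and at 4.93 ± 0.42 against 5.60 ± 0.18 (-0.66, adjusted p = 0.0134). Acot1, a PPARA-responsive thioesterase, was higher in BPL, at 7.44 ± 0.19 against 7.0 ± 0.12 (0.44, adjusted p = 0.00511). Without the bright-Ucp1 arrays it gave 0.58, with 1 BPL array left.

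The difference of differences between liver and heart was tested for each gene. For BPH against BPN, Fgf21 gave -0.79 ± 0.20 (liver minus heart, adjusted p = 0.00994). Its heart signal lies near the lower quartile, which limits what a heart difference could show. Cd36 gave 0.99 ± 0.34 at probe set 1 (adjusted p = 0.121) and 0.89 ± 0.23 at probe set 2 (adjusted p = 0.0126). For BPL against BPN, Ucp3 gave -1.04 ± 0.33 (adjusted p = 0.0593) and Cpt1a 0.32 ± 0.10 (adjusted p = 0.0722), and neither passed. The joint fit shares 1 variance between tissues, aorta included. Within tissues, the SE of BPL minus BPN for Ucp3 was 0.09 in liver, 0.14 in heart and 0.30 in aorta. A missed threshold in this fit therefore does not show that the differences are equal in liver and heart. Of all probe sets, 3.11% passed this test for BPH and 3.92% for BPL.

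Kidney gave fewer calls among the 9 genes: 2 between BPH and BPN, against 7.05% of all probe sets, 1 between BPL and BPN, against 6.24%, and 1 between BPH and BPL, against 6.33%. Slc25a20 separated the 3 strains, at 9.08, 8.97, 9.25, 9.26 and 9.07 in BPH, 8.70, 8.67, 8.79 and 8.72 in BPL and 8.91, 8.95, 8.91, 8.91 and 8.84 in BPN kidneys. No 2 strains overlapped. BPH exceeded BPL by 0.41 ± 0.07 (adjusted p = 0.000908) and BPN by 0.22 ± 0.06 (adjusted p = 0.043), and BPL minus BPN was -0.18 ± 0.07 (adjusted p = 0.143). The call against BPN was lost without any one of 13 of the 14 arrays.

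Cpt1a was higher in BPH kidney, at 11.33, 11.27, 11.35, 11.35 and 11.18 against 11.22, 11, 11.04, 10.91 and 10.84 in BPN, with 1 BPN array inside the BPH range. The difference was 0.29 ± 0.07 (adjusted p = 0.0196), lost without any one of BPH 1, BPH 4, BPN 4 and BPN 5. In BPL it was 0.23 ± 0.08 (adjusted p = 0.0994), which passed without BPN 1.

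Pdk4 was higher in BPL kidney, and 3 of the 4 arrays carried the difference. Its levels were 7.63, 6.52, 7.81 and 7.95 on BPL arrays 1, 2, 4 and 5, against 6.53, 6.39, 6.36, 6.50 and 6.70 in BPN. BPL array 2 lay inside the BPN range, and BPL minus BPN was 0.98 ± 0.22 (adjusted p = 0.0105). The 3 high arrays also had the highest kidney Ucp1 levels, 9.01, 9.28 and 7.96, while array 2 had 4.70, BPH kidneys 5.05 to 7.56 and BPN kidneys 5.57 to 7.05. Since the arrays of bright Ucp1 are the same 3 that had high Pdk4, leaving them out could only lower the difference. The value without them, 0.02, restates the lone BPL array 2. Over the 3 brown adipocyte markers the mean level was 4.66 to 6.51 in BPH, 4.60 to 7.31 in BPL and 5.59 to 6.35 in BPN kidneys. None was called, and their part in the result was not tested. BPH kidneys had 6.67, 6.95, 6.99, 7.37 and 7.0, 0.50 ± 0.21 above BPN (adjusted p = 0.194). Leaving out BPL arrays, either the 3 of bright Ucp1 or array 2, kept that difference at 0.50. Such a fit changes the spread estimate shared by the strains, and without BPL array 2 the difference passed (adjusted p = 0.0105).

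**Figure D5:**
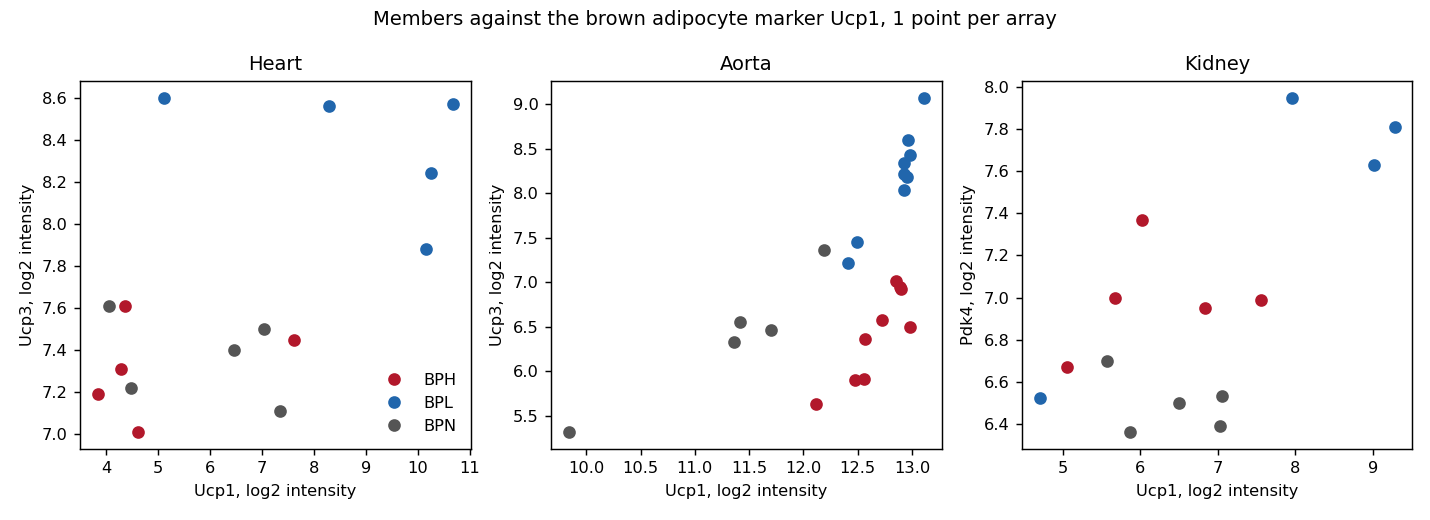
Ucp3 in heart and aorta and Pdk4 in kidney (y axes) against the brown adipocyte marker Ucp1 (x axes), log2 intensity, 1 point per array of BPH, BPL and BPN. BPL heart array 2 has low Ucp1 (5.12) and high Ucp3 (8.60), whereas BPL kidney array 2 has low Ucp1 (4.70) and low Pdk4 (6.52).

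Among the other pathway genes, 13 were higher and 5 lower in BPH kidneys and 8 higher and 8 lower in BPL kidneys. Over all probe sets these shares were 3.66% and 3.39% in BPH, and 3.22% and 3.02% in BPL. Acaa2, the mitochondrial thiolase of medium-chain fatty acids, averaged 9.59 ± 0.15 in BPH, 10.22 ± 0.15 in BPL and 10.91 ± 0.09 in BPN kidneys, with no overlap with BPN (-1.33, adjusted p = 1.39e-08, and -0.70, adjusted p = 6.24e-05). Plin2, a lipid droplet coat protein, averaged 7.60 ± 0.26, 7.56 ± 0.18 and 8.90 ± 0.13 (-1.30, adjusted p = 8.41e-07, and -1.34, adjusted p = 1.24e-06). Both genes were lower in each strain than in BPN. Some kidney arrays carried adrenal cortex signal: the mean level of 3 adrenal cortex markers was 3.25 to 3.42 in BPH, 3.39 to 8.48 in BPL and 3.45 to 9.02 in BPN. None of these markers was called, and their part in the kidney differences was not tested.

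Igfbp1, a fasting-induced binding protein of insulin-like growth factors, was higher in BPH kidneys, at 8.64 ± 0.40 against 6.80 ± 0.70 in BPN (1.84, adjusted p = 0.000173). Plin5, the droplet protein of oxidative tissues, was higher in both, at 4.88 ± 0.19 in BPH, 5.35 ± 0.30 in BPL and 4.27 ± 0.35 in BPN (0.61, adjusted p = 0.0231, and 1.08, adjusted p = 0.000431). Without the 3 bright-Ucp1 arrays its BPL difference was 0.72, with 1 BPL array left. Pdk2 was lower in BPL kidney as in BPL heart, at 8.52 ± 0.10 against 9.61 ± 0.09 in BPN (-1.09, adjusted p = 6.54e-08).

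Aorta had 1 of the 9 genes called between BPH and BPN, against 9.15% of all probe sets, 4 between BPL and BPN, against 10.3%, and 2 between BPH and BPL, against 11%. Slc25a20 was higher in both strains, with 10.11 to 11.47 (median 10.86) in 9 BPH aortas, 10.50 to 11.72 (median 11.20) in 9 BPL aortas and 10.50, 10.10, 9.89, 9.40 and 10.57 in 5 BPN aortas. The groups overlapped at the BPN top. BPH minus BPN was 0.74 ± 0.21 (adjusted p = 0.0262), lost without BPN 12, 13 or 14 (up to 0.122), and BPL minus BPN was 1.00 ± 0.21 (adjusted p = 0.00191). Both differed from those in heart, where Slc25a20 was lower, by 0.96 ± 0.21 (adjusted p = 0.000889) and 1.29 ± 0.21 (adjusted p = 4.59e-06). These tests against heart were chosen after seeing the data, and tissue and amplification kit cannot be told apart in them.

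Ucp3 was higher in BPL aorta, with 5.63 to 7.02 (median 6.50) in BPH, 7.22 to 9.07 (median 8.22) in BPL and 6.55, 6.47, 6.33, 5.32 and 7.36 in BPN aortas. No BPL array overlapped BPH, and 1 BPN array reached into the BPL range. BPL minus BPN was 1.77 ± 0.30, or 3.40-fold (adjusted p = 0.000144), BPH minus BPL was -1.75 ± 0.25 (adjusted p = 1.34e-05), and BPH minus BPN was 0.01 ± 0.30 (adjusted p = 0.989). Hadhb was higher in BPL, at 11.90 to 12.75 (median 12.56) against 12.17, 11.96, 11.80, 11.32 and 12.20 in BPN (0.55 ± 0.15, adjusted p = 0.0187), lost without BPN 13 or 14 (up to 0.097). Its probe set 2 gave 0.05.

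Brown adipocyte markers moved with the strains in aorta. Ucp1 was 12.12 to 12.98 in BPH, 12.41 to 13.11 in BPL and 9.84 to 12.19 in BPN aortas, 1.37 ± 0.24 higher in BPH (adjusted p = 0.000202) and 1.55 ± 0.24 higher in BPL (adjusted p = 3.64e-05). Elovl3, a fatty acid elongase of brown fat, was 3.31 ± 0.39 and 4.51 ± 0.39 higher, at 6.44 to 7.81 in BPH, 6.06 to 9.12 in BPL and 3.01 to 4.59 in BPN aortas. Cidea, a lipid droplet protein of brown fat, differed by 0.57 ± 0.27 and 0.77 ± 0.27 and did not pass (adjusted p = 0.224 and 0.0733). The mean of the 3 markers was 9.81 to 10.85 in BPH, 9.86 to 11.51 in BPL and 8.03 to 9.15 in BPN aortas, with 2 of 3 called in each strain. Of the 4 white adipocyte markers, 1 was lower in each strain and none higher. Between BPH and BPL, Elovl3 was lower in BPH as Ucp3 was (-1.20 ± 0.33, adjusted p = 0.0148), and Ucp1 (-0.18 ± 0.20, adjusted p = 0.676) and Cidea (-0.19 ± 0.23, adjusted p = 0.705) did not pass. The part of brown fat in the aorta differences, that of Ucp3 included, was not tested.

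Of the 62 other pathway genes, 27 were higher and 1 lower in BPL aorta, and 9 were higher and 3 lower in BPH aorta. Over all probe sets the shares were 5.14% higher and 5.20% lower in BPL, and 4.45% and 4.70% in BPH. Their median difference from BPN was 0.54 in BPL and 0.30 in BPH, and Ucp1 is itself one of them. Acot1 averaged 6.84 ± 0.68 in BPL and 5.48 ± 0.44 in BPN aortas (1.36, adjusted p = 0.00249). Crat, carnitine acetyltransferase, averaged 6.87 ± 0.36 against 5.76 ± 0.29 (1.11, adjusted p = 6.57e-05). In BPH, Hadha, the partner subunit of Hadhb, averaged 10.12 ± 0.31 against 9.29 ± 0.21 in BPN (0.83, adjusted p = 0.00353).

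Genes lower in BPH aorta included Vnn1, a PPARA-responsive pantetheinase, at 7.24 ± 0.20 against 8.14 ± 0.15 in BPN (-0.89, adjusted p = 2.45e-07). Fbp1, fructose-1,6-bisphosphatase of gluconeogenesis, was also lower, at 4.75 ± 0.21 against 6.33 ± 0.90 (-1.57, adjusted p = 0.0215), a call lost without BPN 11, 12 or 15. Among the remaining members in aorta, Cd36 stood 0.56 ± 0.30 higher in BPH and 0.65 ± 0.30 higher in BPL, neither passing (adjusted p = 0.302 and 0.202). Pdk4 differed from BPN by 0.18 ± 0.15 and 0.30 ± 0.15 (adjusted p = 0.594 and 0.258). Its probe set 2 gave 1.10 ± 0.38 and 1.15 ± 0.38 and also missed the threshold (adjusted p = 0.0705 and 0.0506). Cpt1a differed by 0.02 and 0.19 (adjusted p = 0.913 and 0.128). Fgf21 differed by at most 0.01 between any 2 strains.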

How the data were processed

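Total RNA of liver, heart, kidney and aorta was hybridised to 67 single-colour Affymetrix custom arrays. Per the labels' protocols, aorta RNA was amplified with another kit than the other tissues. The deposited values are linear intensities per probe set, normalised with RMA by the authors, per the submitters' processing notes and the labels. RMA sets arrays to a common distribution, which removes differences in total transcript amount. No detection calls, plates or scan dates were given, so batches were not tested, and the number of arrays limits the precision. Log2 was taken with a pseudocount of 0. A limma model (version 3.58.1, R 4.3.3, lmFit and eBayes) with a mean per strain was used within a tissue, with Benjamini-Hochberg adjustment over 38385 probe sets and a threshold of 0.05; differences between tissues were tested in a joint fit of the 12 groups. Probe sets were named from the platform annotation, where 24478 had 1 symbol, 65 several and 13842 none listed. The members and all lists were chosen with earlier results of these data known. Of the other pathway genes, the text names, per tissue and comparison with BPN, the 3 called genes of largest difference whose arrays do not overlap. The test was checked on simulated data (BPH against BPN, 38385 probe sets each), with 200 changed probe sets and independent noise. Of changes of 1 on the log2 scale it recovered 100% in liver, 95.5% in heart, 98.5% in kidney and 94% in aorta. Of changes of 0.5 it recovered 70.1% in liver, 83.6% in heart, 61.2% in kidney and 53.7% in aorta, so differences of that size can be missed. Alternatives were quantile and median scaling, log2(intensity + 16), a filter on dim probe sets, the joint fit, other probe sets, a replicate block, leaving out single arrays and, chosen after seeing the data, leaving out BPL arrays of bright Ucp1 in heart and kidney and testing the aorta and kidney against heart.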

Additional observations from a re-analysis of the deposited data

Results flagged for a closer look

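Arrays that stood apart from the other arrays of their group were looked for in 180 groups of a probe set, tissue and strain by Dixon's test at 95%, and 9 were found, where chance gives about 1 in 20. In liver these were BPH 3, lowest for Bdh1 probe set 2 (8.45), BPH 1, highest for Ppara probe set 1 (8.71), and BPN 4, highest for Ppara probe set 2 (8.26). In heart they were BPL 5, highest for Bdh1 probe set 2 (10.16), BPH 1, highest for Cd36 (12.59), BPN 2, lowest for Cpt1a (8.02), and BPL 3, lowest for Hadhb (13.19). In kidney it was BPH 4, highest for Pdk4 probe set 2 (5.86, against 4.78 to 5.00 on the others), and in aorta BPH 2, lowest for Ppara probe set 2 (5.80).

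Differences from BPN that themselves differed between tissues, by the interaction in the joint limma fit, numbered 19 over the probe sets. For liver minus heart in BPH they were Cd36 probe set 2 (0.89), Bdh1 (-1.18 and -1.22 at its 2 probe sets) and Fgf21 (-0.79), and in BPL Bdh1 (-1.46 and -1.47). For kidney minus heart they were Bdh1 in BPH (-1.44 and -1.60) and in BPL (-1.95 and -2.25). For aorta minus heart in BPH they were Slc25a20 (0.96), Bdh1 (-1.74 and -1.75) and Hadhb (0.49). For aorta minus heart in BPL they were Ppara probe set 3 (-1.26), Slc25a20 (1.29), Bdh1 (-2.66 and -2.51) and Hadhb (0.58). Aorta RNA was amplified with another kit, so for the aorta pairs tissue and kit cannot be told apart. The kidney and aorta pairs were chosen after seeing the data.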

How the results depend on the processing

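Of 3149 recomputed values, 6 that were called in at least 1 setting turned their sign, all of Ppara read from probe set 3 in place of probe set 1: 0.57 in BPH and 0.70 in BPL liver, 0.39 and 0.80 in heart, and 0.53 and 0.61 in kidney, each against BPN. A further 96 values that were called in neither setting also turned their sign. The numbers of member genes called are listed where they moved by more than 1.5-fold or to 0, and smaller moves are not listed. In liver for BPH against BPN, for example, Bdh1 missed the threshold under median scaling (adjusted p = 0.0889). Pdk4 missed it there with log2(intensity + 16) (adjusted p = 0.0665). The larger moves in the numbers were these. In the joint fit of all 12 groups, which shares 1 variance between tissues, they became 2 and 1 in liver for BPH and BPL against BPN (from 5 and 3), 1 in heart for BPH against BPN and 1 for BPH against BPL (from 3 each), 1 in kidney for BPH against BPN (from 2), 0 in kidney for BPH against BPL (from 1) and 3 in aorta for BPH against BPN (from 1). Over all probe sets that fit called 1530, 1741 and 1832 in heart for BPH-BPN, BPL-BPN and BPH-BPL (from 2695, 3586 and 3288), and 7152, 7431 and 7890 in aorta (from 3513, 3971 and 4231). Median scaling gave 1 in kidney for BPH against BPN; log2(intensity + 16) gave 2 and the filter on dim probe sets 3 in kidney for BPL against BPN (from 1); the filter gave 2 in aorta for BPH against BPN. For liver minus heart in BPL, quantile normalization gave 2 and log2(intensity + 16) gave 3 (from 1). Leaving out the bright-Ucp1 BPL arrays kept 1 BPL array in heart and 1 in kidney, so numbers of calls against BPL are not given for it. The cause of the moves listed here was not tested.

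With single arrays left out, the number of member genes called for BPH-BPN, BPL-BPN and BPH-BPL ran from 2 to 5, 2 to 3 and 3 to 3 in liver, 2 to 3, 3 to 3 and 2 to 4 in heart, 0 to 2, 1 to 2 and 1 to 2 in kidney, and 0 to 2, 3 to 4 and 2 to 2 in aorta. The replicate block gave 1 member gene in kidney for BPH against BPN, where Slc25a20 missed the threshold (adjusted p = 0.0686), as did Bdh1 in liver for BPH against BPN (adjusted p = 0.061) and Pdk4 in heart for BPH against BPL (adjusted p = 0.0679). The replicate numbers are not shown to pair the arrays: same-numbered arrays had correlations of deviations of -0.15 to 0.27 in liver, -0.26 to 0.19 in heart and -0.29 to 0.28 in kidney. No paired analysis was possible in aorta because the strains share fewer than 2 numbers.

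Ucp3 in liver and Fgf21 in heart and kidney lay near the lower quartile of the arrays, and an absent difference there shows nothing.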
